A study of Mus musculus with 8 samples.

Results

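The 10 genes described here encode protein disulfide isomerases (PDIs) and close relatives of the endoplasmic reticulum (ER): P4hb, Pdia3, Pdia4, Pdia5, Pdia6, Txndc5, Txndc11, Creld2, Erp44 and Erp29. They form a list of named genes, drawn up with earlier results of these data known, from the 55304 gene symbols of GENCODE release M21, and all 10 are among the 12261 genes with a transcription start site (TSS) inside an H3K27ac region. H3K27ac ChIP-seq was carried out in mouse primary hepatocytes (MPH) from adult male WT mice on a C57Bl6 background (C57BL/6J in the study's methods), a model of ER stress (ERS) in cultured liver cells. MPH were kept in serum-free medium and given 1 µM thapsigargin, which blocks the calcium pump of the ER, or vehicle (0.04% DMSO) for 4 h. Of the 8 libraries, 3 per treatment were H3K27ac libraries and 1 per treatment was an input. The H3K27ac libraries came from 3 experiments, each with both treatments. H3K27ac, acetylation of lysine 27 of histone H3, marks active promoters and enhancers.

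The data are 3 lists with 32196 regions on the mm10 genome: 5508 H3K27ac UP, 3376 H3K27ac DOWN and 23312 unchanged regions. UP and DOWN are the authors' calls for thapsigargin against DMSO at an FDR of at most 0.05. Each call combines the 3 experiments in a model paired by experiment. Each region comes with its position and class alone, so the size of a change, its spread over the 3 experiments and the depth of the libraries are unknown. More acetylation per cell and acetylation in more cells cannot be told apart in such bulk samples. Of the hepatocyte markers Alb, Ttr, Apoa1, Apoa2, Hnf4a, Cps1, Tat and Serpina1a, 8 of 8 had a TSS in a region. None of 6 markers of Kupffer cells (0 of 6) or of stellate cells (0 of 6) had one, against 2 of 6 of endothelial cells (Stab2 and Oit3) and 2 of 6 of cholangiocytes (Sox9 and Spp1).

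PDIs form, break and rearrange disulfide bonds in proteins that enter the secretory pathway, through pairs of cysteines in thioredoxin-like domains. Electrons taken up in this process pass to thiol oxidases of the ER, and some family members act as chaperones or as retention factors without such activity. Hepatocytes secrete most plasma proteins, many of which hold disulfide bonds. When unfolded proteins build up in the ER, the factors ATF6 and XBP1 bind ER stress elements (ERSE) or unfolded protein response elements (UPRE) in the promoters of many folding genes.

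Promoter sequences are given for the members in which such an element was found, and for P4hb, which has the widest region of the 10 and no element. They were read from the RefSeq promoter table on mm10, which runs from 250 bases before to 50 bases after a gene's start and has entries for 9 of the 10 members (13 promoters), and all 13 were identical to the genome sequence at their coordinates. Each is written 5′ to 3′ on the strand of its gene, with the element in capitals. Pdia6 is shown at chr12:17266339-17266544 (plus strand), Creld2 at chr15:88819396-88819645 (plus strand) and P4hb at chr11:120573254-120573503 (minus strand), in each case ahead of the first GENCODE TSS. Only 30 bases around the element are shown for Txndc5, at chr13:38528034-38528063, and for Txndc11, at chr16:11134616-11134645 (both minus strand).
Pdia6: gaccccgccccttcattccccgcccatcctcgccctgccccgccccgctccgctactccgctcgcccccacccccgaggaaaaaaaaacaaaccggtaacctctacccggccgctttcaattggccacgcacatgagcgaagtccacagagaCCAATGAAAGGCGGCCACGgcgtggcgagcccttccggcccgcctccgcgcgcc
Creld2: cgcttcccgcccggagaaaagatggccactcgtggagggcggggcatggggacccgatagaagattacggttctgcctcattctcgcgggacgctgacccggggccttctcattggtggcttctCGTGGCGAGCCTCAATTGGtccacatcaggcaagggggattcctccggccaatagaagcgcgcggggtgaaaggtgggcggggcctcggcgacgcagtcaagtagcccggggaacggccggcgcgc
Txndc5: ggcctcgccgcTGACGTGGcgctagccgcc
Txndc11: tgaagtgtggcTGACGTGGagagtccgggt
P4hb: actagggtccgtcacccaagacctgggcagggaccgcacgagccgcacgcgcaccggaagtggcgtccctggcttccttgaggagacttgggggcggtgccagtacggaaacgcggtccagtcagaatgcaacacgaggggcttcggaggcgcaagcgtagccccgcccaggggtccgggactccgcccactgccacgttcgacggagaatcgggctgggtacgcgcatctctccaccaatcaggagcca

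All 10 PDI genes had a TSS in an H3K27ac UP region, and 0 of them had one in a DOWN or an unchanged region. Over all genes with a TSS in any region, 21.4% had one in an UP region and 8.91% in a DOWN region. The UP share was 21.7% for protein-coding genes, and 24.8% for the genes whose widest region at a TSS had a width within the range of the members' regions. Because the genes were picked with the calls already known, their count was set beside these shares without a test. The 10 genes have 40 annotated transcripts, of which 28 start in an UP region and 12 in no region, and the most upstream TSS lay in the UP region for all 10. Each gene had 1 region at its TSSs. These regions were 1560 to 4652 bp wide, with a median of 2850.5 bp, against 2136 bp for the 2047 UP regions at a TSS and 1735 bp for all 10642 regions at a TSS.

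The 3 widest regions belonged to P4hb, Pdia4 and Pdia5, all of which carry out thiol-disulfide exchange in the ER lumen. P4hb (ENSMUSG00000025130.11), the founding PDI and also a subunit of prolyl 4-hydroxylase and of the microsomal triglyceride transfer protein, lies on chromosome 11 from 120560298 to 120573253. Its UP region extended from 120570781 to 120575432, over 4652 bp, and was wider than 83.7% of UP regions at a TSS. P4hb was the 1 member on the study's list of LIVER-ID genes (broad H3K4me3 preferentially in liver), and 0 members were on its list of ubiquitously marked genes. Pdia4 (ENSMUSG00000025823.9), also known as ERp72, lies on chromosome 6 from 47796141 to 47813430 and had an UP region of 4201 bp, from 47810396 to 47814596. Pdia5 (ENSMUSG00000022844.8), which has been linked to the activation of ATF6, lies on chromosome 16 from 35397312 to 35490873. The UP region of Pdia5 had a similar width of 4089 bp, from 35486869 to 35490957, but a different placement, since 97.9% of it lay downstream of the first TSS and its upstream edge was only 84 bp from that TSS.

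Txndc5 (ENSMUSG00000038991.17), or ERp46, on chromosome 13 from 38500079 to 38528824, had an UP region of 3142 bp from 38526080 to 38529221. Pdia3 (ENSMUSG00000027248.13), or ERp57, works on glycoproteins together with calnexin and calreticulin. It lies on chromosome 2 from 121413775 to 121438687, and its UP region of 2917 bp ran from 121412697 to 121415613. Pdia6 (ENSMUSG00000020571.12), also called P5, binds the chaperone BiP and limits the signalling of IRE1. It lies on chromosome 12 from 17266545 to 17284770 and had the narrowest region of the 10, 1560 bp from 17266146 to 17267705, which was wider than 32.1% of UP regions at a TSS. These 6 soluble oxidoreductases included both the widest and the narrowest of the 10 regions.

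The other 4 members had regions from 1781 to 2784 bp. Txndc11 (ENSMUSG00000022498.16), a membrane-bound family member that binds dual oxidases, lies on chromosome 16 from 11074911 to 11134650 and had an UP region of 2784 bp, from 11133008 to 11135791. Erp29 (ENSMUSG00000029616.9), a chaperone that lacks the paired active-site cysteines, lies on chromosome 5 from 121428590 to 121452506 and had one of 2672 bp, from 121450758 to 121453429. Erp44 (ENSMUSG00000028343.10), which retains thiol oxidases and unassembled cargo in the early secretory pathway, lies on chromosome 4 from 48193323 to 48279558. Its UP region spanned 1904 bp, from 48278727 to 48280630. Creld2 (ENSMUSG00000023272.4), an EGF-like protein known for its induction by ERS, lies on chromosome 15 from 88819646 to 88826683, and its UP region spanned 1781 bp, from 88818745 to 88820525. In all, 7 of the 10 regions were wider than the median of the UP regions at a TSS, and the exceptions were Erp44, Creld2 and Pdia6.

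**Figure D1:**
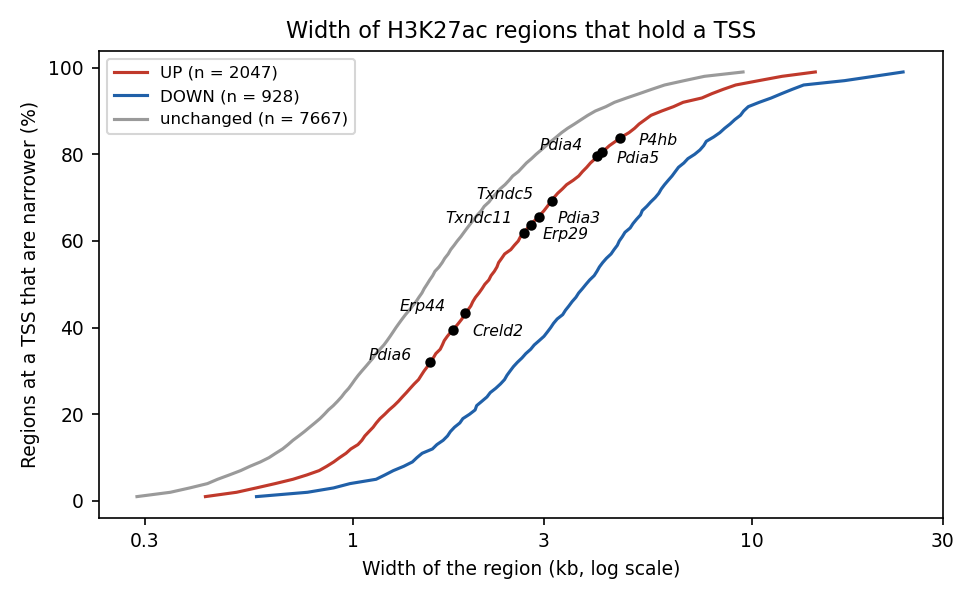
Width of H3K27ac regions that hold a TSS (x axis, kb, log scale) against the percent of such regions that are narrower (y axis), for 2047 UP, 928 DOWN and 7667 unchanged regions. The points are the 10 PDI genes on the UP curve, where 7 of them lie above its median of 2136 bp.

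The UP regions covered the TSS unevenly. They reached 84 to 2179 bp upstream of the first TSS, with a median of 998 bp, and 831 to 4004 bp downstream of it, with a median of 1793 bp. The longer arm was downstream for 8 of the 10 genes, as for 64.9% of all genes with a TSS in an UP region. The exceptions were Creld2, with 901 bp upstream and 879 bp downstream, and Erp44, with 1072 and 831 bp. At 900 bp downstream of the TSS, 80% of the PDI genes were still covered by their region, against 63.3% of the 2620 genes with a TSS in an UP region. Further downstream the order reversed, with 10% against 15.2% at 3100 bp and 0% against 9.54% at 4100 bp. Upstream the order of the shares changed more than once with distance. They were 70% and 76.3% at 400 bp, 70% and 44.7% at 900 bp, and 50% and 40.0% at 1000 bp. Further out they were 30% and 35.5% at 1100 bp, and 10% and 31.8% at 1200 bp. Under the stricter demand of 500 covered bp to either side of a TSS, 8 of the 10 genes remained, without Pdia5 and Pdia6, and 24.3% of genes had an UP region under this rule.

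**Figure D2:**
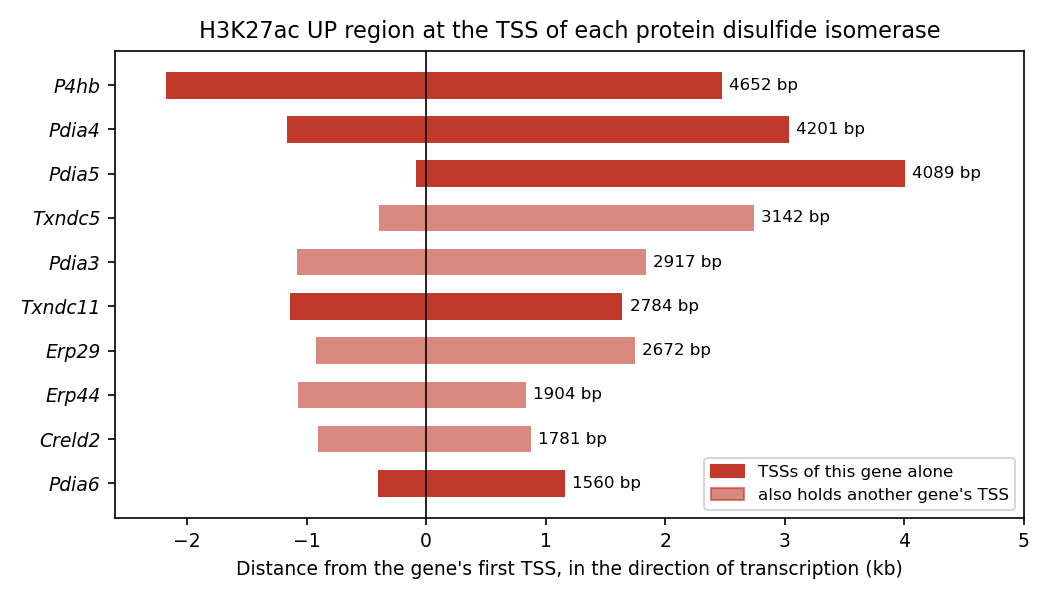
The H3K27ac UP region at the TSS of each PDI gene, drawn to scale in kb from its first TSS in the direction of transcription, with its width in bp. The region of Pdia5 lies almost wholly downstream of the TSS, and the 5 paler bars are regions that also hold a TSS of another gene.

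**Figure D3:**
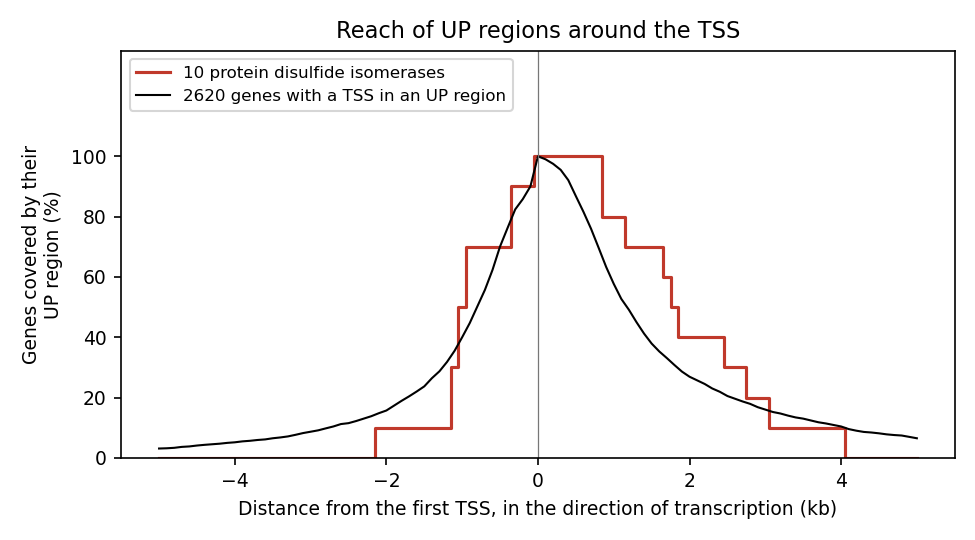
Percent of genes whose UP region still covers a position (y axis) at each distance from the first TSS in kb (x axis), for the 10 PDI genes (red steps) and the 2620 genes with a TSS in an UP region (black line). At 900 bp downstream the values are 80% and 63.3%, and at 3100 bp downstream they are 10% and 15.2%.

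In 5 of the 10 cases the UP region also held the TSS of a neighbouring gene on the other strand. Of all UP regions at a TSS, 27.9% held TSSs of more than 1 gene, on either strand. This share counts each region once. It is higher over genes, because a shared region then counts for each of its genes. The share over genes was not counted, so the 5 of 10 cannot be read as more than the background. ChIP-seq has no strand, so the acetylation of these regions cannot be told apart between the genes. The smallest distance between the TSSs was 17 bp for Pdia3 and Catsper2, a sperm calcium channel gene. It was 69 bp for Erp29 and Tmem116, 202 bp for Erp44 and Invs, 328 bp for Creld2 and Alg12, and 511 bp for Txndc5 and the antisense gene Gm31834. Alg12 encodes a mannosyltransferase that builds the oligosaccharide for N-glycosylation in the ER. The regions of P4hb, Pdia4, Pdia5, Pdia6 and Txndc11 held TSSs of the member alone.

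An ERSE, ERSE-II or UPRE matched in the promoter of 4 of the 9 PDI genes in the promoter table, against 0.884% of all 27025 genes in it and 3.65% of the 1835 of them with a TSS in an UP region. The ERSE was searched as CCAAT and CCACG with 9 bases between them, the ERSE-II as ATTGG and CCACG with 1 base between them, and the UPRE as TGACGTGG, each on both strands. Pdia6 held an ERSE on its own strand, 98 to 80 bases before its RefSeq start (chromosome 12, 17266491 to 17266509). Creld2 held one on the opposite strand, 126 to 108 bases before its start (chromosome 15, 88819520 to 88819538), so that the printed sequence shows its reverse complement. The UP region around this match also holds TSSs of Alg12, on the opposite strand and 328 bp or more from the Creld2 TSS. The match therefore cannot be credited to Creld2 alone. An ERSE was found for 2 of 9 members, 0.137% of all genes and 0.763% of genes with a TSS in an UP region.

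The other 2 matches were UPREs. That of Txndc11 lay on chromosome 16 from 11134627 to 11134634, centred 19 bp downstream of its first GENCODE TSS and lying 102 to 95 bases before its RefSeq start. That of Txndc5 lay on chromosome 13 from 38528045 to 38528052, 138 to 131 bases before the start of the most downstream of its promoter entries and centred 775 bp downstream of the first TSS of the gene. A UPRE was found in 0.714% of all genes and 2.62% of those with a TSS in an UP region. All 4 matches lay inside the UP region of their gene. This was largely set by the search, since promoters lie at gene starts and every member has its first TSS in its UP region. The ERSE-II matched in 0 of 9 members, and so did the element for C/EBP-ATF dimers (TGATGNAAT), which matched in 1.08% of all genes.

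P4hb, Pdia3, Pdia4, Pdia5 and Erp44 had no match in these windows. Counting both strands, the promoter of Pdia4 held 3 copies of CCAAT and 1 of CCACG, and that of P4hb held 1 and 2, at other spacings or orientations. With up to 1 mismatch in the fixed letters, 8 of 9 members matched (all but P4hb), but so did 20.3% of all genes. When the search was extended to the whole region at the TSS, the same 4 members matched, with a second UPRE for Txndc11 at 11133045 to 11133052, against 5.2% of genes with a TSS in a region. The promoters of the PDI genes were rich in G and C. With the promoter of highest GC content taken for each gene, the median was 68.0% (61.3 to 75.7%), against 53.3% for all genes and 62.3% for genes with a TSS in an UP region. The ratio of observed to expected CpG had a median of 0.915 (0.521 to 1.07), against 0.415 and 0.819. The part of base composition in the motif counts was not tested.

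Away from the TSS, no UP region was found in the gene bodies. A body region beyond the region at the TSS was present in 3 of the 10 genes, and all 6 such regions were unchanged. Over all genes with a TSS in a region, 11.5% had an UP region in the body that held none of their TSSs. Pdia5, the longest of the 10 genes with 93562 bp, had 3 of the 6, with widths of 1204, 2217 and 598 bp. Txndc5 had 2, of 521 and 493 bp, and the 86236 bp of Erp44 held 1, of 1319 bp.

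Within 50 kb of the TSSs of the 10 genes lay 48 regions, of which 19 were UP, 2 DOWN and 27 unchanged. More UP than DOWN regions were found around 8 of the 10 genes, compared with 41.5% of all genes with a TSS in a region and with 86.3% of the genes that, like these, have a TSS in an UP region. The UP region at the TSS itself counts here, so the second share is the closer background, and the members were near it. Beyond the 10 regions at their own TSSs there were 9 UP regions, 456 to 5256 bp wide with a median of 1241 bp, around 5 genes (P4hb, Pdia3, Pdia4, Txndc5 and Creld2). Among genes with a TSS in an UP region, 51.0% had another UP region within 50 kb. The 27 unchanged regions were 268 to 10222 bp wide with a median of 1051 bp, and 7 of them held a TSS of another gene.

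The 9 further UP regions were of different kinds, and 5 of them lay at the TSS of another gene. For P4hb it was a region of 2379 bp at Mcrip1, 10834 bp from the nearest P4hb TSS. For Pdia3 they were regions of 1200 bp at Hypk, 32200 bp away, and of 785 bp at Mfap1b, 48941 bp away. The region at Mfap1b came within 50 kb only through an internal TSS of Pdia3, as it lay 59796 bp from the first one. For Pdia4 they were regions of 1510 bp at the small RNA gene Rny1, 23692 bp away, and of 907 bp at Zfp398, 22227 bp away. The other 4 held no annotated TSS. The widest, of 5256 bp, lay on chromosome 15 from 88827645 to 88832900, 7999 bp downstream of the Creld2 TSS and past the end of that short gene. It was wider than the 1781 bp region at the Creld2 TSS itself. The UP region of Txndc5 without a TSS had 1241 bp (chromosome 13, 38535092 to 38536332) and lay 6268 bp upstream of the nearest Txndc5 TSS. Those of Pdia4 and Pdia3 had 1598 and 456 bp and lay 24970 and 18139 bp from a TSS. The lists do not link a region to a target gene, so none of these 4 can be assigned to the PDI gene by more than its distance.

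DOWN regions were found near 2 of the 10 genes, and for 24.9% of all genes with a TSS in an UP region. For Txndc11 it was a region of 6745 bp at the TSS of Zc3h7a (chromosome 16, 11170492 to 11177236), 35842 bp away and wider than the UP region of Txndc11. For Pdia5 it was a region of 543 bp (chromosome 16, 35379652 to 35380194), 32981 bp from the nearest of its TSSs. This region came within 50 kb only through internal TSSs of Pdia5, as it lay 110679 bp from the first one. The distance from a member's TSSs to the nearest DOWN region ranged from 32981 bp (Pdia5) to 868412 bp (Erp44), with a median of 239669 bp.

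Of the 20 regions next to the UP regions at the TSSs, on either side and at any distance, 14 were unchanged, 4 UP and 2 DOWN. Around all UP regions at a TSS, 70.9% of these neighbours were unchanged, 23.3% UP and 5.72% DOWN, so the neighbours of the PDI genes were near the background. The closest pair was at P4hb, where 879 bp separated the upstream edge of the UP region from an unchanged region of 6113 bp at Arhgdia. Txndc5 and Creld2 also had an unchanged region close by, with gaps of 2395 and 2772 bp. At Pdia6 the next region was 45506 bp away upstream and 80064 bp downstream, and no other of the 10 had its nearer neighbour so far off.

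**Figure D4:**
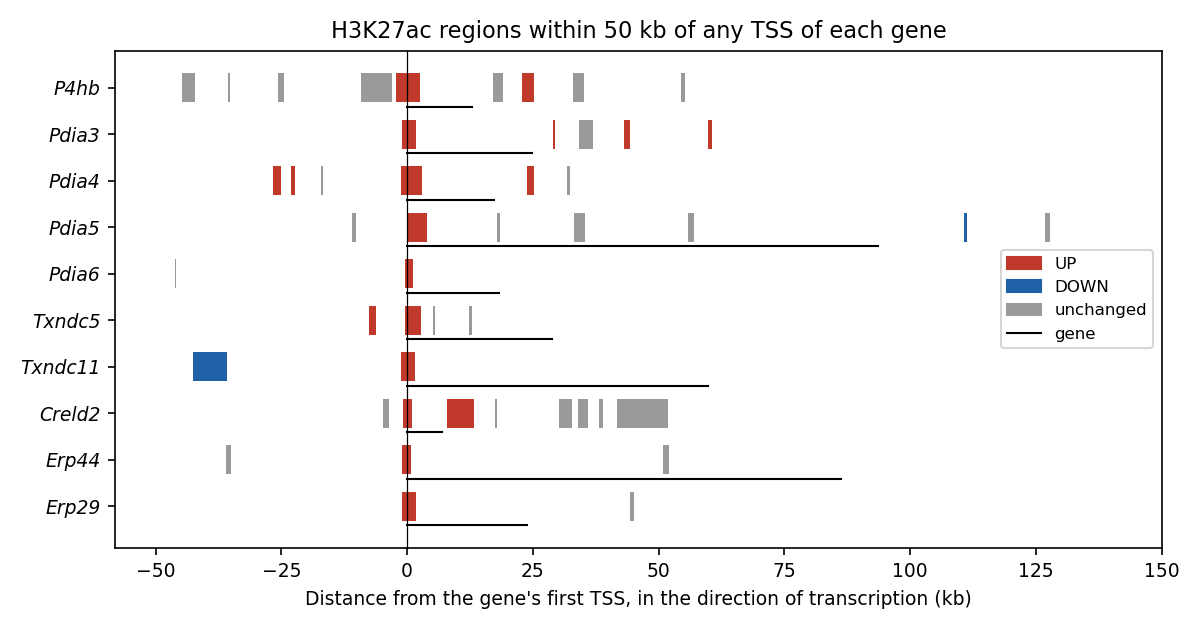
All 48 H3K27ac regions within 50 kb of any TSS of the 10 PDI genes, by class, to scale in kb from the first TSS in the direction of transcription, with the gene as a black line under its regions. Red (UP) regions stand at the first TSS of every gene, gray (unchanged) regions make 27 of the 48, and 2 are blue (DOWN), near Pdia5 and Txndc11.

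Other genes of oxidative folding were divided between the UP and the unchanged class. In 3 lists of 34 further genes, 26 had a TSS in a region, of which 13 (50%) had one in an UP region, 13 in unchanged regions alone and 0 in a DOWN region. The median width of the widest region was 1879.5 bp for these 26 genes. Among 12 other PDI family genes, 8 had a TSS in a region and 2 of the 8 (25%) in an UP region, which is near the 21.4% of all genes. These were Dnajc10, a reductase that acts in ER-associated degradation, with 2113 bp, and Creld1, the relative of Creld2, with 8557 bp. The 6 members with unchanged regions alone included the 4 transmembrane thioredoxin-like genes Tmx1, Tmx2, Tmx3 and Tmx4.

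Among 9 thiol oxidases and redox partners, 6 had a TSS in a region and 4 of the 6 (66.7%) in an UP region. Both ER oxidoreductin genes, which reoxidize PDIs, were UP, Ero1l with 1721 bp and Ero1lb with 2121 bp. The sulfhydryl oxidase gene Qsox1 had an UP region of 8460 bp as well as an unchanged one. Vkorc1l1, a paralog of the vitamin K epoxide reductase gene, had 2 UP regions, the wider of 6879 bp. Of 13 genes whose products bind PDIs, 12 had a TSS in a region and 7 of the 12 (58.3%) in an UP region. The lectin chaperone genes Calr (3954 bp) and Canx (2813 bp) and the glucosyltransferase gene Uggt1 (1186 bp), whose products work with Pdia3 on glycoproteins, were UP. So were the chaperone genes Hspa5 (6701 bp) and Hsp90b1 (4164 bp), and Ern1 (11863 bp), the gene of the ERS sensor IRE1. The UP regions of Calr and Hsp90b1 also held TSSs of other genes. Uggt2, the paralog of Uggt1, had an unchanged region of 1332 bp. P4hb has partners in both classes. Of the catalytic subunits of prolyl 4-hydroxylase, P4ha1 had an UP region of 1683 bp, P4ha2 an unchanged one of 426 bp and P4ha3 none. Mttp, the large subunit of the triglyceride transfer protein, had 2 unchanged regions, the wider of 6818 bp. These regions also held a TSS of Trmt10a.

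**Figure D5:**
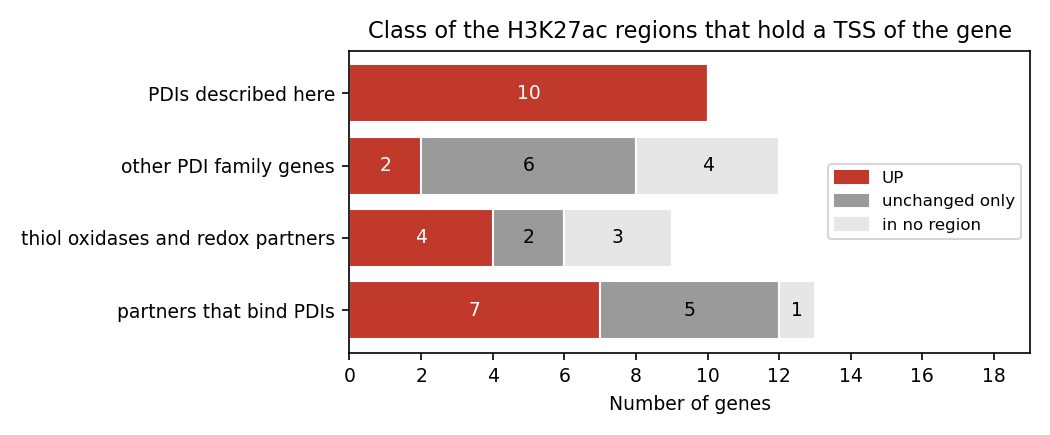
Number of genes (x axis) with a TSS in an UP region, in unchanged regions alone or in no region, for the 10 PDI genes and 3 lists of other genes of oxidative folding. All 10 PDI genes described here are UP, against 2 of 8, 4 of 6 and 7 of 12 listed genes with a TSS in a region. No gene in the plot has a TSS in a DOWN region.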

How the data were processed

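H3K27ac was measured in MPH by ChIP-seq. The authors mapped reads to mm10 with Bowtie, removed duplicates and blacklisted regions, called broad peaks with MACS2 on the pooled H3K27ac libraries, and tested bins of 150 bp with csaw after an input filter and loess normalization, in a model paired by experiment. Bins were combined per peak. Peaks with an FDR up to 0.05 became UP regions where rising bins outnumbered falling ones by a ratio of 2 or more and DOWN regions where this ratio was 0.5 or less. Peaks with a higher FDR are the unchanged regions. A peak that passes the FDR with a ratio between 0.5 and 2 meets none of these definitions. A TSS in no region can therefore lie in such a peak. The deposited lists hold positions in base pairs and region names, with no value per library, so no test could be run on them. A csaw call combines bins and has no size here, and a wider peak holds more bins.

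The region at a TSS is one that holds the start of any GENCODE M21 transcript, a body region overlaps the gene, and a nearby region has any base within 50 kb of a TSS. The study's methods name an earlier GENCODE release. The genes and lists were chosen with earlier results of these data known. Named were all 10 genes, the listed genes with a TSS in a changed region and neighbours that share a region or hold the nearest changed region, and other genes named were chosen after their values were seen. Shares over all genes serve as background. Motifs were searched in RefSeq promoters of 300 bases on GRCm38. Alternatives changed the TSS rule, the window, the minimum width, the transcripts used and the motif rule. Counting functions were tested on simulated data. The analysis used Python 3.11.15, numpy 2.4.6, pandas 2.3.3, pysam 0.24.0 and matplotlib 3.10.9.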

Additional observations from a re-analysis of the deposited data

How the results depend on the processing

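Of 44 values recomputed under other settings, 34 were counts within 1.5 times the reported one or shares equal to it. The other 10 were 9 counts that moved by more and 1 share of base pairs. With regions of at least 3 kb only, the UP count fell from 10 to 4 genes (P4hb, Pdia4, Pdia5 and Txndc5) beside a background of 27.1%, and the other 6 genes had no region left. When regions up to 10 kb from a TSS were allowed, all 10 genes had an UP region, 3 also had an unchanged one, and the UP share of base pairs was 79.0% in place of 100%. Without regions that hold the TSS of another protein-coding gene, 11 UP regions within 50 kb remained of 19. The 2 DOWN regions became 0 within 25 kb or among regions whose nearest protein-coding TSS is the member's, and 1 without regions at another protein-coding TSS, with regions of at least 1 kb, or from the most upstream TSS alone. An ER stress element was found in 2 genes when the ERSE alone was searched and in 8 with up to 1 mismatch, in place of 4. The count of genes with more UP than DOWN regions ran from 7 to 10, and the count with an UP region in the body was 0 throughout. No paired analysis was possible because the lists hold no value per library, and for the same reason no library could be left out in turn. Depth, which is unknown, limits what an unchanged class or the lack of a region can show.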
